A study of Mus musculus with 6 samples.

Results

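Homeostatic microglia genes are transcripts that mark the resident macrophages of the brain in their resting, surveying state. The 9 genes described here are Cx3cr1, P2ry12, P2ry13, Tmem119, Csf1r, Aif1, Sall1, Siglech and Gpr34. They were chosen by symbol with earlier results of these data known, as were the gene lists used below. Shares over all genes are therefore set beside their counts as description only. All 9 were found among the 29872 gene identifiers measured. All 9 also passed the filter on low values, an average over the libraries of 1 RPKM or more (reads scaled to gene length and library size), which left 13864 genes tested.

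Microglia enter the brain early in development and renew themselves there. Their survival depends on the receptor encoded by Csf1r, which is bound by the cytokines Csf1 and Il34, the latter made largely by neurons. Their resting identity is kept by transforming growth factor beta signalling and by transcription factors such as Sall1, and purine and chemokine receptors let them sense damage and neuronal signals. On activation, in mouse models of neurodegeneration, resting markers such as P2ry12, Tmem119 and Cx3cr1 are known to fall while other genes are induced.

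RNA was sequenced from the hippocampus of C57BL/6 J mice in 6 libraries. In the 3 shHepaCAM libraries, from mice labelled as HepaCAM knockdown, an adeno-associated virus (AAV) placed in the CA1 field of both hemispheres carried a short hairpin RNA against Hepacam, which encodes an adhesion molecule of astrocytes. The 3 shControl libraries are labelled wild type; their labels do not say separately whether these mice received a control vector, and age, sex, the interval after injection and the promoter driving the hairpin are not stated in the labels. Nothing in the labels ties each library to its own mouse, so p-values here reflect only the spread between libraries, which may be technical. Values per library are given throughout in the order of replicates 1, 2 and 3.

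Depth, worked out from the RPKM values, was 14903198 to 17341842 reads in the control and 15816576 to 16384937 reads in the knockdown libraries. Hepacam fell from 35.6 ± 1.98 to 22.6 ± 1.76 RPKM (SD, n = 3 each). Markers of hippocampal fields were present, with a summed level of 211 to 234 RPKM in control and 212 to 270 RPKM in knockdown libraries for 6 genes, of which 0 passed the test. Choroid plexus transcripts set a pair of libraries apart. The summed level of 9 choroid plexus markers was 69.3 RPKM in shControl replicate 1 and 30.1 RPKM in shHepaCAM replicate 3, against 1702 to 4305 RPKM in the other 4 libraries, so results that rest on those choroid-poor libraries are also given without them.

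Promoter windows of 300 bases (250 before to 50 after the annotated start) were held for 6 of the 9 genes in the RefSeq table for build GRCm38.p6, which is not the build of the deposited values. Those of Cx3cr1 (chr9:120068247-120068546, minus strand) and Aif1 (chr17:35176003-35176302, minus strand) are shown because these genes changed most. Those of P2ry12 (chr3:59262936-59263235, minus strand) and P2ry13 (chr3:59210833-59211132, minus strand) are shown because these neighbouring receptor genes did not pass the test described below. All read from upstream to downstream on the gene's own strand. Capitals mark the letters GAGGAA on either strand, the core of the motif bound by PU.1, the macrophage transcription factor encoded by Spi1.
Cx3cr1: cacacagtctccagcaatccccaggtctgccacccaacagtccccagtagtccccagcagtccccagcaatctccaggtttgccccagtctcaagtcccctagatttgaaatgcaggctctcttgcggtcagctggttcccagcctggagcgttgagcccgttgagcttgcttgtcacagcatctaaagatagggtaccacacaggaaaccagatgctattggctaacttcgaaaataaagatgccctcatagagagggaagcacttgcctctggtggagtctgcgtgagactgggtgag
Aif1: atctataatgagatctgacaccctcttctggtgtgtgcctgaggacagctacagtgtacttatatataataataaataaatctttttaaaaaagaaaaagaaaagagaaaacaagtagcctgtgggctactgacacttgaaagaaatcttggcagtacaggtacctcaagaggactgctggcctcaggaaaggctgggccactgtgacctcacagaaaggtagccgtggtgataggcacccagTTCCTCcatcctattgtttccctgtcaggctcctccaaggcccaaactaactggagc
P2ry12: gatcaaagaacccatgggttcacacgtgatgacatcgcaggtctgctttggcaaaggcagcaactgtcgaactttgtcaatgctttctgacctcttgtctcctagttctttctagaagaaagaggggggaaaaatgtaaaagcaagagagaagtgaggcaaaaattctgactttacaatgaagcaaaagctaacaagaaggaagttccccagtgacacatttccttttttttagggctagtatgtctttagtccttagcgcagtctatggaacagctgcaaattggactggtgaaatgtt
P2ry13: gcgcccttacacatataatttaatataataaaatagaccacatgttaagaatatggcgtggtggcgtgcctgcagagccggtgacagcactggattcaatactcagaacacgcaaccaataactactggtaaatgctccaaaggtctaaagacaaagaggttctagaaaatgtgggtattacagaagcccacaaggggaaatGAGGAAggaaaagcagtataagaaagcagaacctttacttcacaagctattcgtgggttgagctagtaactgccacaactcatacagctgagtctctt
The letters occurred in 1 place each in the Aif1, P2ry13 and Siglech windows and in none of those of Cx3cr1, P2ry12 and Sall1, so in 3 of the 8 windows that the 6 genes have (Sall1 has 3), while 28.3% of 32851 RefSeq promoter windows held them. The ETS-IRF composite, GGAA and GAAA with a gap of 2 bases of any kind, was also searched on both strands, and was found in 0 of the 8 windows and in 2.72% of all windows. A match describes the letters only and does not show binding.

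Of the 9 genes, 3 rose in the knockdown libraries, 0 fell and 6 did not pass the threshold of an adjusted p of 0.05 in limma, a linear model fitted to log2(RPKM + 1) across all genes. Those that rose were Csf1r, Cx3cr1 and Aif1. Over all genes tested, 6.07% passed in either direction and 4.23% were called higher. All 9 genes had a log2 change above 0, as did 60.4% of all genes tested, and their median change was 0.26 against 0.05 over all genes. For 8 of the 9, every knockdown library lay above every control library, against 20.9% of all genes tested, and for 0 of the 9 did every knockdown library lie below, against 10.7%. More microglia and more RNA per microglial cell cannot be told apart in RNA from whole tissue. Nor can either be told from transcripts of other cells that carry these genes, or from a smaller share of neuronal RNA. Markers of such cells and of neurons are given below.

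**Figure D1:**
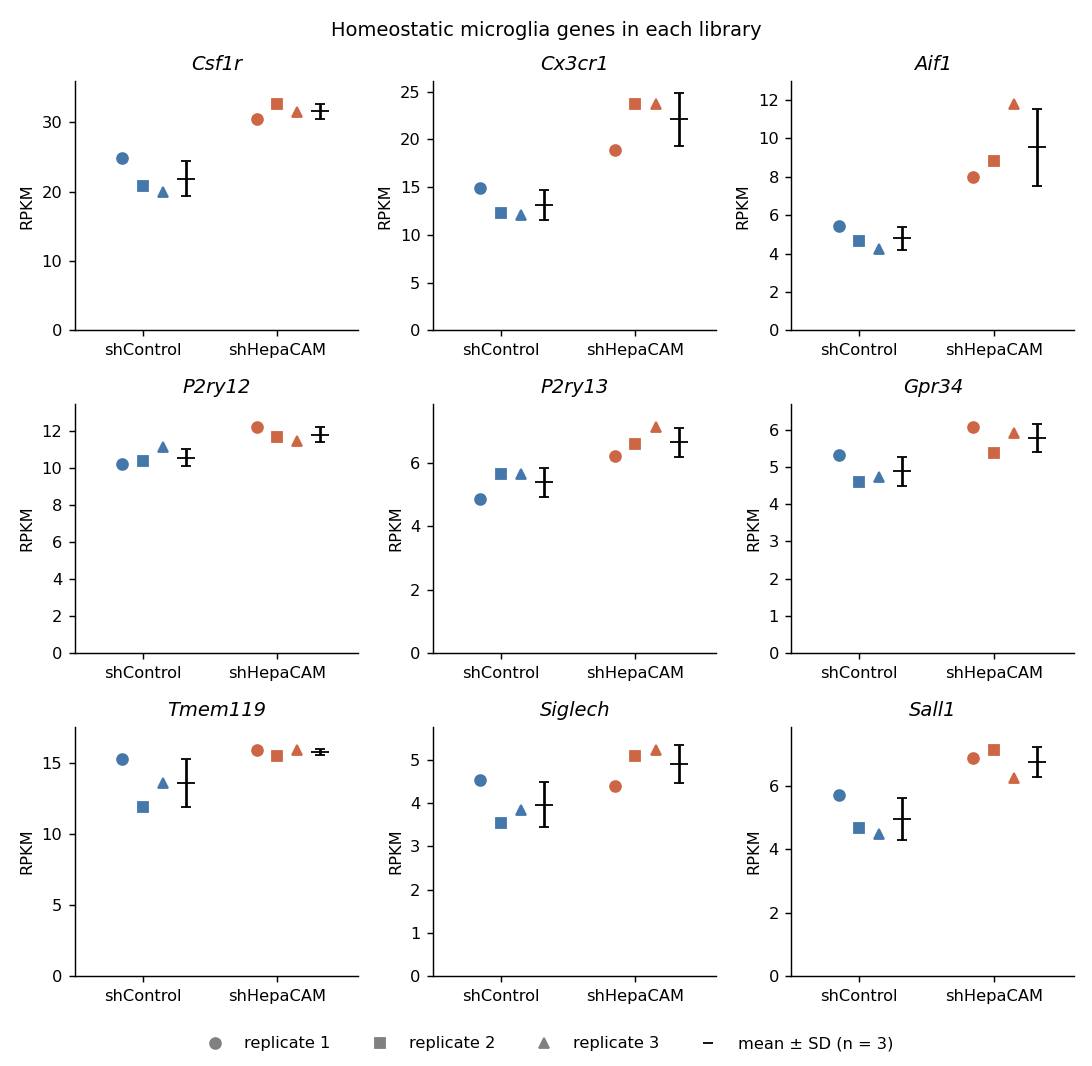
RPKM of the 9 homeostatic microglia genes in each library (points; the shape gives the replicate number), with the mean and SD of 3 libraries per group beside them. Control and knockdown points are apart for 8 genes and overlap for Siglech, and the widest gaps are those of Csf1r, Cx3cr1 and Aif1.

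Csf1r, the receptor on which microglia depend for survival, was the most abundant of the 9. Control libraries held 24.8, 20.9 and 20.0 RPKM, and knockdown libraries 30.6, 32.7 and 31.5 RPKM. The groups were well apart, and the lowest knockdown library exceeded the highest control library by more than the range of either group. Csf1r rose by 0.51 on the log2(RPKM + 1) scale (SE 0.09, limma adjusted p = 0.0223), and its mean was 44.2% higher. Exons of Hmgxb3, on the opposite strand, share 15.1% of its exonic bases in the annotation used here (GENCODE M21). The deposited Csf1r values did not match the exon length of that annotation, so the share in the authors' gene model is not known. Without a known strand setting for the counting, reads of both genes cannot be told apart in shared stretches. Hmgxb3 itself averaged 8.82 RPKM in either group, with 8.35 to 9.39 RPKM in control and 7.67 to 9.41 RPKM in knockdown libraries.

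Cx3cr1, the receptor of the neuronal chemokine fractalkine, had 14.9, 12.4 and 12.0 RPKM in the control libraries. The knockdown libraries had 18.8, 23.7 and 23.7 RPKM. All knockdown libraries were above all control libraries, with shHepaCAM replicate 1 the nearest to the controls. It rose by 0.71 (SE 0.11, limma adjusted p = 0.0206), and its mean was 68.7% higher.

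Aif1 encodes IBA1, the actin-binding protein whose antibody stain is the usual label of microglia in tissue sections. Its control values were 5.46, 4.67 and 4.25 RPKM, and its knockdown values 7.97, 8.82 and 11.8 RPKM. The rise was the largest of the 9 genes, with shHepaCAM replicate 3 highest. Its log2 change was 0.85 (SE 0.14, limma adjusted p = 0.0236), and its mean was 98.8% higher. Aif1 also rests on the fewest reads in the controls, 97 to 143, and the counting interval in shControl replicate 3 was 3.45 to 5.18 RPKM.

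These calls were lost in several fits that left out 1 library, although the changes themselves moved little. Over all genes, 842 were called with every library, against 231, 125 and 85 without shControl replicate 1, 2 and 3. Without shHepaCAM replicate 1, 2 and 3, in this order, 880, 417 and 325 were called. The part of the smaller sample in the lost calls was not tested. Without shControl replicate 2 or 3, in this order, adjusted p was 0.0885 and 0.0937 for Cx3cr1, 0.0935 and 0.0940 for Csf1r, and 0.0920 and 0.1001 for Aif1. Without shHepaCAM replicate 2 it was 0.0602, 0.0603 and 0.0564 for Cx3cr1, Csf1r and Aif1. Without shHepaCAM replicate 3, Aif1 still passed (0.0409), while Cx3cr1 (0.0593) and Csf1r (0.0602) did not. Aif1 also missed the threshold without shControl replicate 1 (0.0505), and all 3 passed without shHepaCAM replicate 1. With both choroid-poor libraries left out, Csf1r and Aif1 passed and Cx3cr1 did not (adjusted p = 0.0479, 0.0443 and 0.0669). Over all alternatives the log2 change ranged from 0.43 to 0.60 for Csf1r, from 0.63 to 0.82 for Cx3cr1 and from 0.70 to 0.97 for Aif1.

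**Figure D2:**
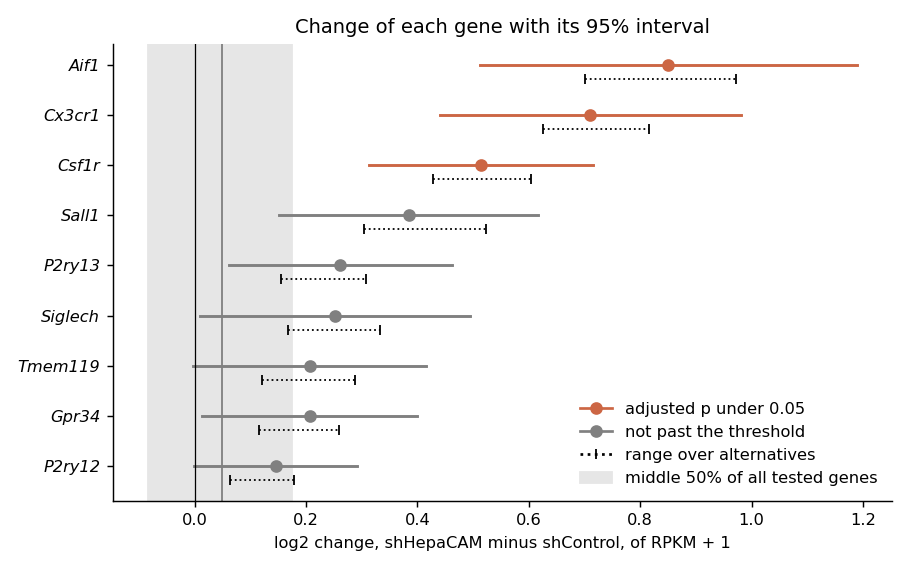
Log2 change (shHepaCAM minus shControl, of RPKM + 1) of each gene with its 95% interval from limma, and below it the range over the alternatives; the band is the middle 50% of all tested genes. Aif1, Cx3cr1 and Csf1r, at 0.85, 0.71 and 0.51, passed the test, and P2ry12, at 0.15, lay inside the band.

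The purine receptors changed less. P2ry12, the ADP receptor that guides microglial processes to sites of injury, had 10.2, 10.4 and 11.1 RPKM in the controls. Its knockdown values were 12.2, 11.7 and 11.4 RPKM. The groups did not overlap, but the gap between them was smaller than the range of either. Its log2 change of 0.15 (95% interval -0.001 to 0.29, limma adjusted p = 0.209) was the smallest of the 9 and did not pass.

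P2ry13, a second ADP receptor that lies near P2ry12, had control values of 4.86, 5.66 and 5.65 RPKM and knockdown values of 6.23, 6.59 and 7.15 RPKM. Every knockdown value was above every control value, and the change of 0.26 did not pass (95% interval 0.06 to 0.46, limma adjusted p = 0.120). Both genes lie within Med12l, on the opposite strand, which stood at 1.86 ± 0.32 and 1.89 ± 0.21 RPKM (SD, n = 3 each). Only 9 exonic bases of P2ry12 and 0 of P2ry13 are shared with exons of Med12l.

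Gpr34, a receptor for the lipid lysophosphatidylserine, had 5.31, 4.61 and 4.72 RPKM in the controls and 6.08, 5.37 and 5.90 RPKM in the knockdowns. The highest control and the lowest knockdown value almost touched, and both lay within the counting interval of the other. Its change of 0.21 did not pass (95% interval 0.01 to 0.40, limma adjusted p = 0.181). The gene lies within Cask, on the opposite strand and with no exonic base shared, which went from 5.69 ± 0.11 to 6.44 ± 0.60 RPKM (SD, n = 3 each) and did not pass (limma adjusted p = 0.304).

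Among the surface proteins, Tmem119, a transmembrane protein used to separate microglia from blood-derived macrophages, had control values of 15.3, 11.9 and 13.6 RPKM. In the knockdowns it had 15.9, 15.5 and 15.9 RPKM. The knockdown libraries were close together, and shControl replicate 1 nearly reached them. The change of 0.21 did not pass (95% interval -0.002 to 0.42, limma adjusted p = 0.210), and was 0.29 without shControl replicate 1 and 0.12 without shControl replicate 2.

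Siglech, a sialic acid-binding lectin of mouse microglia and plasmacytoid dendritic cells, was the least abundant of the 9. Its control values were 4.53, 3.53 and 3.83 RPKM and its knockdown values 4.39, 5.07 and 5.23 RPKM. It was the one gene of the 9 whose groups overlapped, since shHepaCAM replicate 1 lay below shControl replicate 1. The change of 0.25 did not pass (95% interval 0.01 to 0.49, limma adjusted p = 0.193).

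Sall1, the transcription factor that keeps microglial identity and that in the adult mouse brain is largely restricted to microglia among immune cells, had 5.71, 4.65 and 4.47 RPKM in the controls. Its knockdown values were 6.86, 7.13 and 6.22 RPKM. All knockdown values were above all control values, and the change of 0.38 was the largest of those that did not pass (95% interval 0.15 to 0.62, limma adjusted p = 0.0671). Among 16 alternatives it passed in 1, limma-voom on the whole reads (adjusted p = 0.0439), with a range of 0.0439 to 0.216. The other 5 genes that did not pass stayed short of the threshold in every alternative in which they were tested, and no log2 change of any of the 9 turned below 0.

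The control libraries were not alike for these genes. The library shControl replicate 1, which was also low in choroid plexus transcripts, held the highest control value for 7 of the 9 genes, the exceptions being P2ry12 and P2ry13, for which it held the lowest. The summed level of the 9 was 91.0, 78.7 and 79.7 RPKM in the controls and 109, 117 and 119 RPKM in the knockdowns. The knockdown library low in choroid plexus transcripts, shHepaCAM replicate 3, held the highest knockdown value for 5 genes and the lowest for 2. The part of choroid plexus content in these differences was not tested.

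Because RPKM is scaled by length, levels can be ordered between genes. In control libraries the mean fell from Csf1r (21.9 RPKM) through Tmem119 (13.6), Cx3cr1 (13.1), P2ry12 (10.6), P2ry13 (5.39), Sall1 (4.94), Gpr34 (4.88) and Aif1 (4.79) to Siglech (3.96 RPKM). The ranges of Tmem119 and Cx3cr1 overlapped, as did those of each neighbouring pair from P2ry13 down to Siglech, so these neighbours did not differ beyond their spread. In knockdown libraries Cx3cr1 (22.1 ± 2.82 RPKM) stood above Tmem119 (15.8 ± 0.23 RPKM; SD, n = 3 each) with no overlap, and Aif1 moved from the eighth to the fifth place, at 9.53 ± 2.01 RPKM.

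To ask whether the genes changed by unequal amounts, each was divided by Csf1r within its library, a ratio that library scaling cannot alter. Relative to Csf1r, Aif1 and Cx3cr1 were higher in the knockdown libraries, by 0.44 and 0.22 on the log2 scale. P2ry12, Tmem119, Gpr34 and Siglech were lower relative to Csf1r, by differences of -0.38, -0.31, -0.29 and -0.22, with no overlap between the groups. The ratios of P2ry13 (-0.23) and Sall1 (-0.08) overlapped. The exact two-sided permutation test gave p = 0.1 for each of the 6 ratios without overlap, the smallest that 3 libraries against 3 allow, and 0.133 after adjustment over the 8 ratios, so none can pass.

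Since Csf1r itself rose, most genes fell relative to it. Of all other genes tested, 66.7% had a lower ratio to Csf1r with no overlap, and 68.8% had no overlap in either direction, so the 4 of 8 lower ratios and the 6 of 8 in either direction are near that background. A higher ratio with no overlap was found for 2.14% of all genes, and here for Aif1 and Cx3cr1. For Cx3cr1 the groups almost touched, with a log2 ratio of -0.697 in shHepaCAM replicate 1 against -0.732 in shControl replicate 3. The log2 ratio of Aif1 to Csf1r was -1.94, -1.89 and -1.42 in the knockdowns, against -2.24 to -2.16 in the controls, and shHepaCAM replicate 3 stood apart from the other 2 knockdown libraries.

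**Figure D3:**
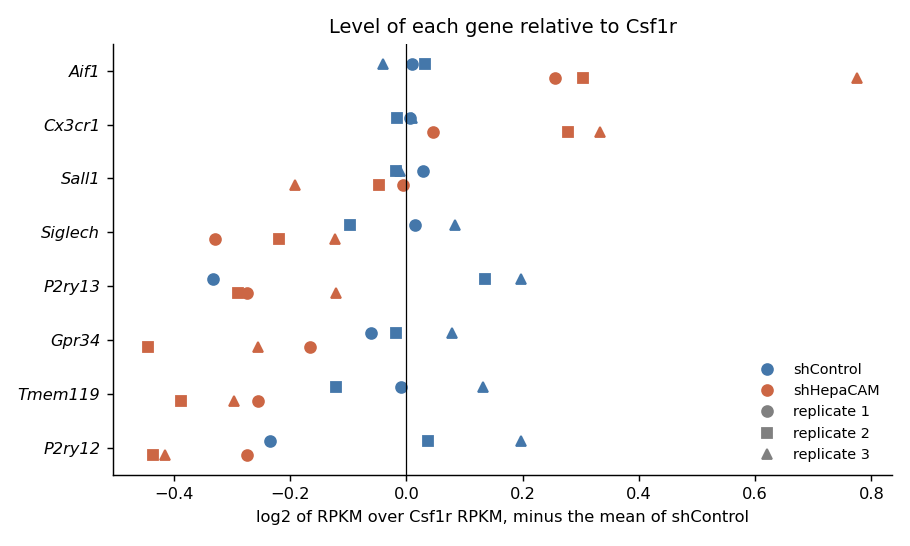
Log2 of each gene's RPKM over that of Csf1r in the same library, drawn relative to the control mean, with a point per library (3 per group). Aif1 and Cx3cr1 lie to the right in the knockdown libraries, and P2ry12, Tmem119, Gpr34 and Siglech lie to the left.

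The ligands and signalling partners of these receptors moved in both directions. Of 15 genes, 12 were tested, of which 6 rose, 1 fell and 5 did not pass, with a median log2 change of 0.31. Over all genes tested, 4.23% were called higher and 1.84% lower. The 1 partner that fell was Il34. Its control values were 17.5, 19.6 and 16.7 RPKM, and its knockdown values 10.5, 5.98 and 8.44 RPKM. The knockdown libraries were all well below the controls, the lowest being shHepaCAM replicate 2, while its receptor Csf1r was higher in the same libraries. Il34 fell by 1.05 (SE 0.17, limma adjusted p = 0.0210).

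Csf1, the other ligand of the same receptor, had 9.67, 7.69 and 8.82 RPKM in the controls and 10.8, 11.3 and 11.3 RPKM in the knockdowns. Its groups did not overlap, and the change of 0.32 did not pass (limma adjusted p = 0.0736). Cx3cl1, which encodes the ligand of Cx3cr1 and is a neuronal product, averaged 138 ± 3.90 and 170 ± 10.8 RPKM (SD, n = 3 each), in this order, and rose by 0.29 (limma adjusted p = 0.0480). Of the transforming growth factor beta pathway, the ligand Tgfb1 and the receptors Tgfbr2 and Tgfbr1 rose by 0.57, 0.42 and 0.34 (limma adjusted p = 0.0240, 0.0448 and 0.04998), and the signal transducer Smad3 changed by 0.27 (0.216).

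Tyrobp, the adaptor through which Siglech and Trem2 signal, had 34.1, 29.7 and 28.9 RPKM in the controls and 44.0, 40.7 and 57.8 RPKM in the knockdowns. It rose by 0.59 (limma adjusted p = 0.0480), with shHepaCAM replicate 3 well above the other libraries. Entpd1, the ectoenzyme that breaks down the ATP and ADP sensed by P2Y receptors, went from 2.31 ± 0.15 to 3.54 ± 0.44 RPKM (SD, n = 3 each) and rose by 0.45 (limma adjusted p = 0.0478). Abhd16a and Abhd12, enzymes that make and degrade lysophosphatidylserine, changed by 0.13 and -0.04 and did not pass, nor did the G protein subunit Gnai2 (-0.01). The ecto-nucleotidase Nt5e, the adaptor Hcst and the receptor P2ry14 lay under the filter.

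Most calls on these partners were close to the threshold. The number called was 0 without any single control library and without shHepaCAM replicate 3, 1 without shHepaCAM replicate 2 and 4 without shHepaCAM replicate 1. It was 0 with both choroid-poor libraries left out and 2 with libraries scaled to the median gene. Over all genes these last fits called 121 and 683, and the fits without 1 library called the counts given above. The fall of Il34 kept its size, from -1.25 to -0.86 over all alternatives, but the call was lost when any single control library or shHepaCAM replicate 3 was left out (adjusted p = 0.0644, 0.0885, 0.0828 and 0.0561).

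**Figure D4:**
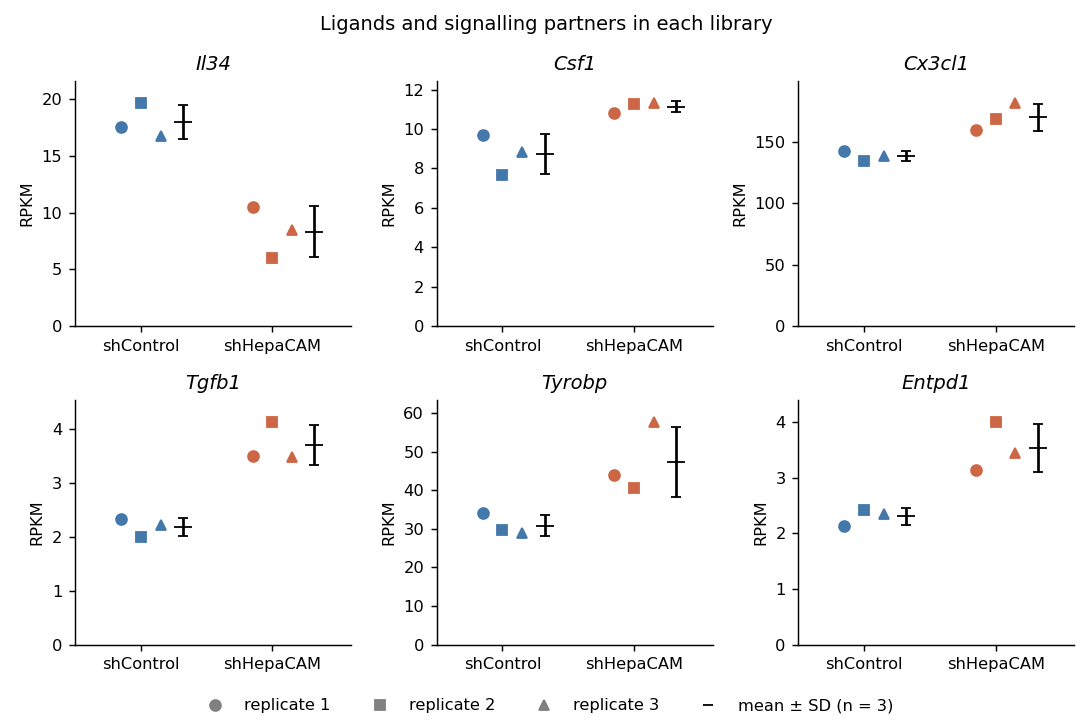
RPKM of 6 ligands and partners in each library (points; the shape gives the replicate number), with the mean and SD of 3 libraries per group. Il34 is lower in every knockdown library, and Csf1, Cx3cl1, Tgfb1, Tyrobp and Entpd1 are higher in every knockdown library than in any control, Csf1 without passing the test.

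Some genes listed as transcription factors of microglia rose as well. Lymphocyte and plasma cell markers and a monocyte marker also rose, as given below, and which cells carried these transcripts was not tested. Of 10, 9 were tested, 5 rose and 0 fell, with a median log2 change of 0.48, while 4.23% of all genes were called higher. Irf8, which macrophages need to develop, went from 1.67 ± 0.13 to 3.33 ± 0.24 RPKM (SD, n = 3 each), a rise of 0.70 (limma adjusted p = 0.0137). Spi1, which encodes PU.1, went from 2.73 ± 0.77 to 5.18 ± 0.69 RPKM (SD, n = 3 each), a rise of 0.75 (limma adjusted p = 0.0439). Irf5 and Cebpa rose by 0.59 and 0.48 (limma adjusted p = 0.0312 and 0.0141). Mef2c, which neurons also express, changed by 0.41 (0.0806), and Maf, Etv5 and Mef2a did not pass, at 0.14, -0.004 and -0.07; Runx1 lay under the filter. Leaving out 1 control library gave 2, 0 and 1 calls, against 231, 125 and 85 over all genes. Leaving out 1 knockdown library gave 5, 3 and 3 calls, against 880, 417 and 325 over all genes. With both choroid-poor libraries left out, 0 were called.

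Further genes of resting microglia were listed apart from the 9. Of 20, 17 were tested, 3 rose and 0 fell, with a median log2 change of 0.34, while 4.23% of all genes were called higher. Rgs10, a regulator of G protein signalling in microglia, went from 12.6 ± 1.32 to 24.8 ± 1.32 RPKM (SD, n = 3 each), a rise of 0.92 (limma adjusted p = 0.00501) that passed in all 16 alternatives. The checkpoint protein gene Vsir and the selectin ligand gene Selplg rose by 0.46 and 0.41 (limma adjusted p = 0.0308 and 0.0331). The other 14 did not pass. Leaving out 1 control library gave 3, 1 and 1 calls, leaving out 1 knockdown library 2, 2 and 1, and leaving out both choroid-poor libraries 1. The counts over all genes in the same fits, given above, also differed from that with every library.

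Pan-myeloid genes and genes of activated microglia were also listed, and their difference from the resting markers was not tested. The pan-myeloid list includes complement subunits such as C1qc, which not all myeloid cells express. Of its 13 genes, 12 were tested and 10 rose, with a median of 0.78. Those with the smallest p were the protease Ctss, the complement subunit C1qc, the lysozyme Lyz2 and the integrin Itgb2. They rose by 1.01, 0.92, 1.32 and 0.85. The 2 that did not pass, named after their values were seen, were Itgam (0.26) and Coro1a (0.15). Of 18 disease-associated microglia genes, 17 were tested and 7 rose, with a median of 0.43, and 8 of the 17 lay at or below the median of the 9 homeostatic genes. Itgax, an integrin of activated microglia, had 1.12, 0.84 and 1.03 RPKM in the controls and 4.25, 5.08 and 6.40 RPKM in the knockdowns, a rise of 1.63, and the cystatin Cst7, the lipid receptor Trem2 and the tetraspanin Cd9 rose by 1.99, 0.94 and 0.45. In both lists 0 genes fell, while over all genes 4.23% were called higher and 1.84% lower.

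The pan-myeloid count was 5 without shControl replicate 2 and 5 without shControl replicate 3, and 7 with both choroid-poor libraries left out. The disease-associated count was 3 without shControl replicate 2, 2 without shControl replicate 3 and 3 without both choroid-poor libraries. In the same order, these fits called 125, 85 and 121 genes over all genes tested. Cst7 lost the call without shControl replicate 3 (adjusted p = 0.0533), and Cd9 without shControl replicates 2 and 3 (0.0654 and 0.0573).

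**Figure D5:**
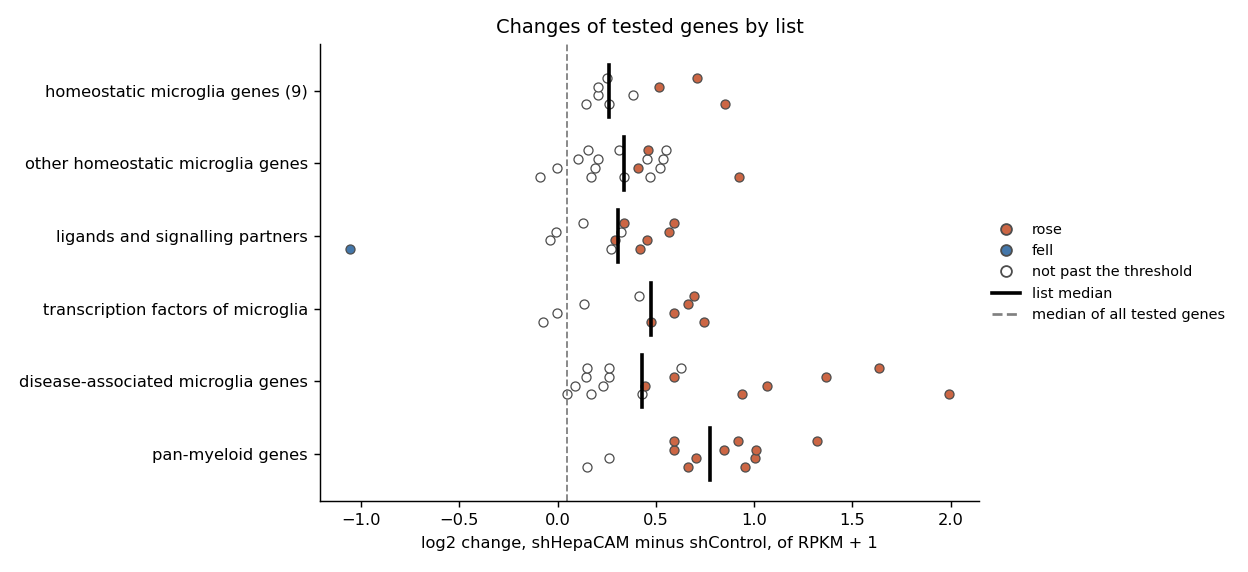
Log2 change (shHepaCAM minus shControl, of RPKM + 1) of every tested gene in 6 lists, filled where the gene passed the test, with the list median as a bar and the median of all tested genes as a dashed line. The median is 0.26 for the 9 homeostatic genes, 0.43 for disease-associated and 0.78 for pan-myeloid genes, and Il34 stands alone at -1.05.

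Markers of other cells that could carry Csf1r, Cx3cr1 or Aif1 were measured beside them. Of 9 markers of border macrophages, which line vessels and meninges, 1 was tested: Stab1 changed by 0.21 and did not pass (limma adjusted p = 0.198). The other 8 lay between 0.042 and 1.47 RPKM in every library, and none was at 0 throughout. Among these 8, Ms4a7, named after its values were seen, had 0.29 to 0.35 RPKM in control and 0.70 to 1.47 RPKM in knockdown libraries, with no overlap. The summed level of the 9 was 4.31 to 4.77 RPKM in control and 4.96 to 6.51 RPKM in knockdown libraries. Of 9 monocyte and neutrophil markers, 5 were tested and 1 rose, against 4.23% of all genes called higher. Their summed level was 4.63 to 9.56 RPKM in control and 12.3 to 17.4 RPKM in knockdown libraries. The 1 that rose, the surface antigen Ly6c2, listed here as a monocyte marker, had 0.43, 0.25 and 0.44 RPKM in the controls and 2.98, 4.41 and 14.1 RPKM in the knockdowns. Over the knockdown libraries the antibody chain Igkc rose in the same order (489, 927 and 1735 RPKM), whereas Ccr2 was highest in shHepaCAM replicate 1. Which cells carried Ly6c2 was not tested. Ly6c2 carried the gap in the sum: without it, the other 8 summed to 4.202 to 9.31 RPKM in control and 3.29 to 9.64 RPKM in knockdown libraries, which overlap. Its log2 change was 2.33 (limma adjusted p = 0.0317), and the call was lost without shControl replicate 1, 2 or 3 or shHepaCAM replicate 2 (adjusted p = 0.0857, 0.112, 0.112 and 0.0693). The neutrophil genes S100a8 and S100a9, named after their values were seen, changed by -0.52 and -0.13 and did not pass. Ccr2, the chemokine receptor of monocytes, named after its values were seen, stood at 0.030 to 0.043 RPKM in control and at 0.090 to 0.299 RPKM in knockdown libraries. Plac8, also named after its values were seen, had 0.51, 0.40 and 0.72 RPKM in the controls and 2.14, 1.13 and 1.69 RPKM in the knockdowns. Its groups did not overlap, and its change of 0.77 did not pass (limma adjusted p = 0.0515). The part of these cells in the rise of Csf1r, Cx3cr1 and Aif1 was not tested.

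Other markers moved with the groups as well. Of 10 lymphocyte and plasma cell markers, 5 were tested and 4 rose, against 4.23% of all genes called higher. Their summed level was 5.02 to 6.54 RPKM in control and 510 to 1823 RPKM in knockdown libraries, carried by the antibody chain Igkc. The summed level of 5 neuron markers was 581 to 598 RPKM in control and 366 to 485 RPKM in knockdown libraries. Of these 5, 2 fell, against 1.84% of all genes called lower, and 3 did not pass. Those 3, named after their values were seen, were Rbfox3 (0.01, with overlapping groups), Syt1 (-0.18) and Stmn2 (-0.82). The neuronal tubulin Tubb3 and the synaptic protein Snap25 fell by 0.48 and 0.70. Both calls were lost in 9 of 16 alternatives, among them leaving out any single control library (adjusted p = 0.119 to 0.145 for Tubb3 and 0.115 to 0.145 for Snap25), shHepaCAM replicate 3 (0.109 and 0.0754) or both choroid-poor libraries (0.196 and 0.136), and Tubb3 also without shHepaCAM replicate 2 (0.0827). Of 6 astrocyte markers 1 fell, the glutamate transporter Slc1a2, by 0.37, and their summed level was 547 to 615 RPKM in control and 539 to 660 RPKM in knockdown libraries. The call on Slc1a2 was lost without any single control library (adjusted p = 0.0686 to 0.0867) and without both choroid-poor libraries (0.122). Of 3 blood markers 2 were tested and 0 passed. Of 7 cell division genes, 6 lay under the filter, and Bub1b changed by -0.30 (limma adjusted p = 0.295). The summed level of these 7 was 2.62 to 3.64 RPKM in control and 2.72 to 2.82 RPKM in knockdown libraries.

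A profile over the 6 libraries was formed as the median of the 9 genes after each was centred on its own mean. The 5 genes outside the 9 closest to it, among 7705 genes averaging 5 RPKM or more, were Hey1, Gba2, Tipin, Nup88 and Csf1, with root-mean-square differences of 0.016 to 0.037 on the log2 scale. Within the 9, Siglech and Tmem119 lay closest to the shared profile (0.075 and 0.083) and Aif1 farthest (0.298). Closeness of this kind follows mainly from the size of the change between the groups and was computed from the same libraries.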

How the data were processed

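RNA sequencing of mouse hippocampus gave 6 libraries, 3 shControl and 3 shHepaCAM, grouped by their titles. The authors deposited 1 table of RPKM values per library; the unit was inferred from the values, which become whole reads when multiplied by exon length and depth. Bowtie2 2.0.6, TopHat2 2.0.12 and build mm39 are named in the submitters' processing notes. The counter, annotation, strand setting and handling of reads with several matches were not given in the sources used here. Symbols were found for 29805 of 29872 identifiers through GENCODE M21, which is on another build and served for names, exon lengths and overlaps only.

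Whole reads were recovered within 0.01 read in every library for 27390 genes by annotated exon length (91.9% of genes with one) and for 2329 more, Csf1r among them, by a step of their own; 153 were not resolved. Reads gave depths, exact Poisson intervals at the 95% level, which cover counting error only, and 2 alternatives. The closest libraries, shControl replicates 2 and 3, had a chi-square over degrees of freedom of 3.78, above sampling noise, so none was counted as a repeat.

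Tests used R 4.3.3 and limma 3.58.1, fitted with a trended variance to log2(RPKM + 1) of the genes averaging 1 RPKM or more, with Benjamini-Hochberg adjustment over all 13864 genes and a threshold of 0.05. Fold changes on this scale understate those of low genes. Across all genes 587 were higher and 255 lower; with libraries scaled to the median gene 336 were higher and 347 lower. Ratios to Csf1r were tested by exact permutation in scipy 1.17.1. The fit was tested on simulated data with known changes. Alternatives were scaling to the median gene, quantile normalization, no filter, a filter at 5 RPKM, a pseudocount of 0.1, no trend, a replicate block and leaving out each library. Chosen after seeing the data were limma-voom on the whole reads with library totals, the same with libraries scaled to the median gene (505 higher, 631 lower), and leaving out shControl replicate 1 and shHepaCAM replicate 3 together.

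The members and lists were chosen with earlier results of these data known. Named are all 9 members and Hepacam, the tested genes of the partner and transcription factor lists (1 gene, counted in its list, is not reported here), and of each other list the passing genes, or, where over 4 or none passed, the 4 of lowest p. Genes of like pattern were the 5 with the smallest root-mean-square difference. Figures were drawn with matplotlib 3.10.9.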

Additional observations from a re-analysis of the deposited data

How the results depend on the processing

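The 9 genes kept a log2 change above 0 in every alternative, and 3 were called with scaling to the median gene, quantile normalization, the filter at 5 RPKM, the pseudocount of 0.1, no trend and limma-voom scaled to the median gene, 4 with limma-voom on library totals, Sall1 being the fourth, against 0 without a filter, 0 with the replicate block and 0 to 3 with 1 library left out. In the same order (no filter, replicate block, 1 library left out), the number called was 169, 157 and 85 to 880 across all genes, 16, 12 and 10 to 39 over all lists, 0, 0 and 0 to 4 among partners, 2, 0 and 0 to 5 among transcription factors, 1, 1 and 1 to 3 among other homeostatic genes, and 4, 3 and 2 to 7 among disease-associated genes. For pan-myeloid genes it was 6 with the block and 5 to 9 with 1 library left out. With both choroid-poor libraries left out it was 2 of the 9 genes, 121 across all genes, 16 over all lists, 0 among partners, 0 among transcription factors, 1 among other homeostatic and 3 among disease-associated genes. Partners called numbered 2 with median scaling, 4 with quantile normalization, 3 with the filter at 5 RPKM 4 without trend and 4 with limma-voom scaled to the median gene. Transcription factors called were 2 with the filter at 5 RPKM, and other homeostatic genes 5 with that filter and 6 with limma-voom on library totals. The cause of these shifts was not tested; leaving out libraries uses fewer samples, and dropping the filter tests 29872 genes. Ratios to Csf1r without overlap numbered 6 to 7.

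Deviations from group means correlated at -0.21, 0.016 and -0.145 between libraries of equal replicate number, for numbers 1, 2 and 3. The largest correlation, 0.269, was that of the choroid-poor libraries, shControl replicate 1 and shHepaCAM replicate 3. Since tissue content can enter such correlations, they cannot show whether equal numbers share a batch or litter. The replicate block, which removes residual degrees of freedom, called 0 of the 9 genes. Of the 3 genes called, Aif1 rests on the fewest reads, 97 to 296 a library.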
